A study of Mus musculus with 16 samples.

Results

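The genes described here were 10 immediate-early genes outside the AP-1 complex: Egr1, Egr2 and Egr3, Nr4a1, Nr4a2 and Nr4a3, Ier2, Ier3 and Ier5, and Zfp36. They were measured by RNA-seq in ear skin of 8 male mice of the inbred strain C57Bl/6J, without any transgene or treatment in the sample labels, and each mouse was clipped once at about 24 months and once at about 30 months (16 libraries). The labels call the first age young and the second old, and put the animals at 23.8 to 24.4 months when first clipped and at 29.0 to 30.1 months when clipped again, 5.0 to 6.3 months later. The first biopsy was taken from one ear and the second from the other ear of the same animal, so that age, ear and time of sampling cannot be told apart. The genes were picked from measured values, since their change between the 2 ages was known when they were listed. That change is therefore given below as a description, without a test. All 10 were among the 45706 genes of the count table, and all 10 were among the 21526 genes with enough reads to be tested.

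Immediate-early genes are transcribed within minutes of a stimulus such as a growth factor, mechanical stress or cytokine, because the transcription factors that drive them, among them serum response factor (SRF) and CREB, are already present and are switched on by kinases. Their mRNAs are short-lived. The EGR proteins are zinc finger transcription factors, the NR4A proteins are orphan nuclear receptors, the IER proteins are small early response proteins, and Zfp36 encodes tristetraprolin, which binds AU-rich elements and speeds the decay of inflammatory mRNAs. In skin these genes are known from wounding, ultraviolet light and keratinocyte growth, and early genes are also known to respond to tissue handling.

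The libraries held 22967222 to 36162431 reads on genes. Levels are given as CPM, the reads of a gene per 1000000 reads on genes with edgeR's TMM scaling, and log2 fold changes come from the paired edgeR fit over all 21526 genes tested. Markers of skin were present in every library: the 6 basal keratinocyte markers summed to between 8553 and 16920 CPM. Some libraries stood apart. On the first principal component of all genes (21.3% of the variance), mouse 43 lay at 34.48 at 24 months and at -27.76 at 30 months, whereas the other 7 mice moved from a lower to a higher value. Whether the labels of these 2 libraries were exchanged was not tested and the labels were kept. An exchange would turn the sign of every change in mouse 43, and a gene counted below as higher in 8 of 8 mice would be higher in 7. The 30-month libraries of mouse 50 (63.36 on the first component) and mouse 29 (60.59 on the second) were the farthest out. For some genes the log2 fold change is therefore also given without mouse 43, 29 or 50.

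RefSeq promoter sequences (GRCm38.p6) were matched to 7 of the 10 genes, namely Egr2, Nr4a1, Nr4a2, Nr4a3, Ier3, Ier5 and Zfp36, with 11 start sites between them, and were not matched for Egr1, Egr3 and Ier2. Those of Egr2, Nr4a1, Nr4a2, Nr4a3 and Zfp36 are shown because they hold elements through which early genes are classically switched on, and that of Ier3 because its groups were the only ones that did not overlap. Capitals mark the CArG box bound by SRF, the core TGACG of the cyclic AMP response element bound by CREB, or the EGR site GCGNGGGCG, each searched on both strands. Each line is a stretch before the start that lies in no annotated exon, at most 150 bases long, except that of Zfp36, whose window is exonic in another transcript and for which 30 bases around the CArG box are given. The stretches of Egr2 and Nr4a1 lie before start sites inside the annotated genes.
Egr2, chr10:67537719-67537868, plus strand: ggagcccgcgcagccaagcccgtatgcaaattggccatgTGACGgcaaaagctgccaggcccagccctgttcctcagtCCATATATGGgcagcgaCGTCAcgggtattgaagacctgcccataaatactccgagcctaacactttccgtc
Nr4a1, chr15:101266696-101266845, plus strand: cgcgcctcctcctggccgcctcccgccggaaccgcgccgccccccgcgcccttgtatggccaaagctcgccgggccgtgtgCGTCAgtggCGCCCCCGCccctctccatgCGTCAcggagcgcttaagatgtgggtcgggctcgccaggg
Nr4a2, chr2:57124004-57124153, minus strand: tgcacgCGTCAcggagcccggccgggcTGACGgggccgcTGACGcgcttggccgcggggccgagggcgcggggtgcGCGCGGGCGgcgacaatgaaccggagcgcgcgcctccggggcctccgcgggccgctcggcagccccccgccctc
Nr4a3, chr4:48045055-48045152, plus strand: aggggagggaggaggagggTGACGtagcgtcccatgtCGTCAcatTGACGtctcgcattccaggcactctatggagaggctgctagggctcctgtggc
Ier3, chr17:35821534-35821683, plus strand: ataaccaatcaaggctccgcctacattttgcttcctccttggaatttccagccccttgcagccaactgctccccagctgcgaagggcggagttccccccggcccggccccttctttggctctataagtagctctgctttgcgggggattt
Zfp36, chr7:28379267-28379296, minus strand: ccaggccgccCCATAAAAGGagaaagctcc

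The CArG box was found in the promoters of Egr2, at 2 places, and Zfp36, and in 1.63% of all 32851 promoters of the table. The core TGACG was found in Egr2, at 2 places, and in Nr4a1, Nr4a2 and Nr4a3, at 4 places each, and in 20.8% of all promoters. The EGR site was found once each in Nr4a1, Nr4a2 and Zfp36, and in 5.55% of all promoters. The promoters of Ier3 and Ier5 held none of these letters, and the full element TGACGTCA (1.79% of all promoters), which contains this core, and the AP-1 site TGANTCA (7.81%) were found in none of the 7 genes. The letters TATAAA, held by 13.6% of all promoters, were found in Nr4a2 only among them, on the opposite strand at -164 to -159 from the start. Only these exact letters were searched, so tataag in the stretches of Ier3 and Ier5 was not counted. Which of the genes has a working TATA box cannot be read from this. These shares count single promoters, whereas a gene of the 7 counts if any of its promoters holds the letters. Counted per gene over 27025 genes, the shares were 1.81% for the CArG box, 23.0% for TGACG and 6.27% for the EGR site. For TGACGTCA, the AP-1 site and TATAAA they were 2.03%, 8.97% and 15.7%. The windows cover 250 bases before and 50 after each start, and a match is a stretch of letters, not evidence of binding.

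Among the EGR genes, Egr1 was the member with the largest difference, while Egr2 and Egr3 did not follow it. Egr1 (ENSMUSG00000038418, chr18:34859823-34864984), which links growth factor signals to transcription, ranged from 43.7 to 89.2 CPM at 24 months (median 57.8) and from 57.4 to 262 CPM at 30 months (median 94.6). All 8 mice had more Egr1 at 30 months, and 5 of the 8 libraries of that age lay above all those at 24 months. The highest levels were those of mouse 14 (262 CPM), mouse 64 (172 CPM) and mouse 29 (136 CPM), all at 30 months. The log2 fold change was 0.85 ± 0.16 (SE, n = 8 mice), or 1.81-fold, and the changes of single mice ran from 1.22-fold in mouse 21 to 3.06-fold in mouse 64. Without mouse 43 the log2 fold change of Egr1 was 0.82, and it was lowest without mouse 64 (0.745).

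Egr2 (ENSMUSG00000037868, chr10:67535475-67542188), a regulator of myelination that is also active in hair follicles, ranged from 54.5 to 74.6 CPM at 24 months (median 66.1). At 30 months it ranged from 52.8 to 130 CPM (median 71.8). The groups overlapped: 4 mice were higher and 4 lower at the second age, and the log2 fold change was 0.17 ± 0.12 (SE, n = 8 mice). Mouse 29 had the largest difference in Egr2, 1.74-fold, and without this mouse the log2 fold change was 0.09. Without mouse 43 it was 0.11. Egr3 (ENSMUSG00000033730, chr14:70077203-70082614), a relative known to be needed for muscle spindles, ranged from 38.7 to 54.3 CPM at 24 months (median 42.6) and from 26.2 to 58.4 CPM at 30 months (median 37.0). Egr3 was the only one of the 10 genes with a negative log2 fold change, -0.18 ± 0.12 (SE, n = 8 mice), and it was lower at 30 months in 7 of 8 mice. The exception was mouse 43, in which Egr3 was 1.51-fold higher, and without that mouse the log2 fold change was -0.29. Without mouse 21, which had the largest difference in the other direction (0.567-fold), it was -0.09.

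**Figure D1:**
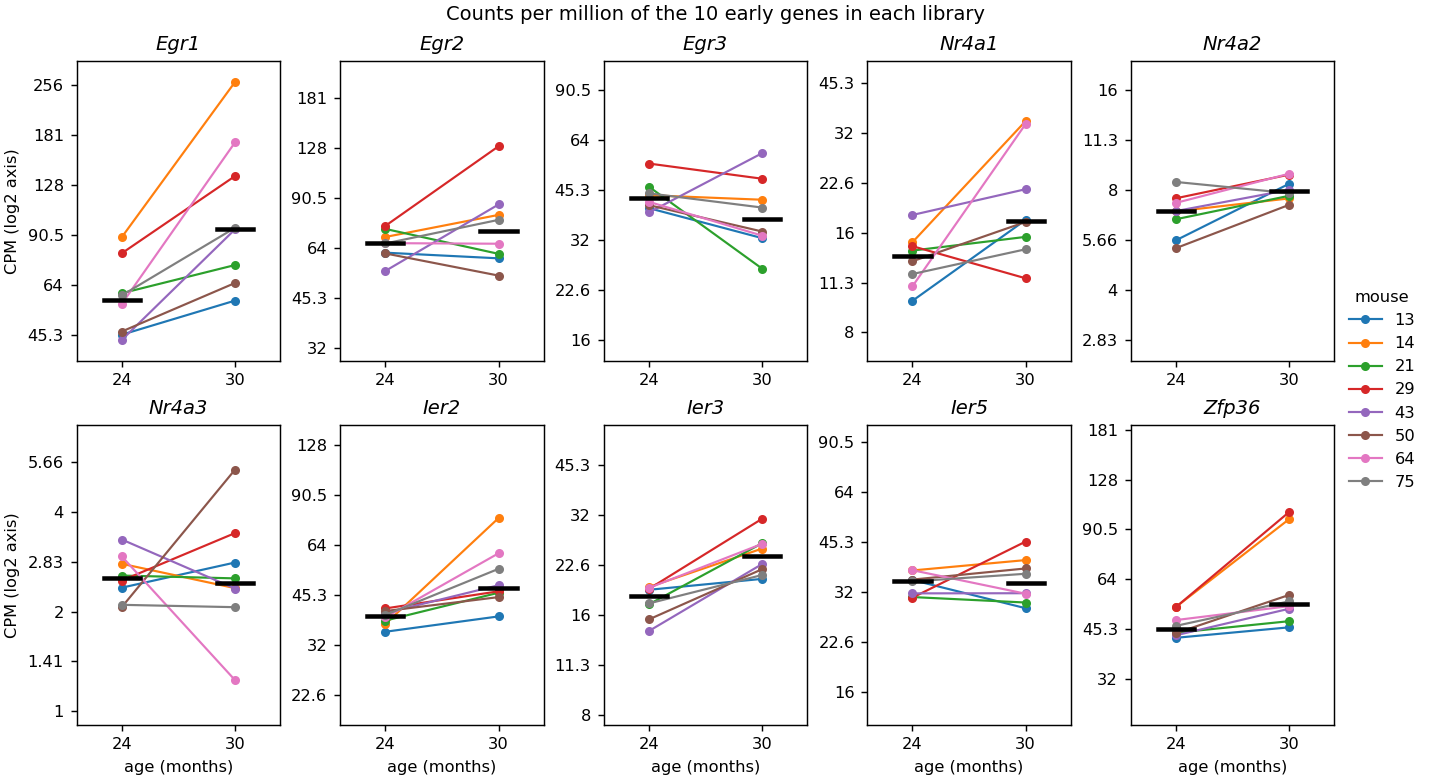
CPM of the 10 early genes (log2 axis, spanning the same number of doublings in every panel) at 24 and 30 months, with 1 coloured line per mouse and a black bar at the median of 8 libraries. Lines of Egr1, Ier2, Ier3 and Zfp36 slope upward in all 8 mice, and those of Egr2, Egr3, Nr4a3 and Ier5 go both ways.

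The 3 NR4A genes encode nuclear receptors that act without a known ligand in the classical sense and are controlled mainly by how much is made. Nr4a1 (ENSMUSG00000023034, chr15:101254269-101274795), also known as Nur77, ranged from 9.97 to 18.1 CPM at 24 months (median 13.6) and from 11.7 to 34.7 CPM at 30 months (median 17.4). The log2 fold change was 0.54 ± 0.19 (SE, n = 8 mice). Nr4a1 was higher at 30 months in 7 mice and lower in mouse 29. Its log2 fold change was 0.67 without mouse 29 and 0.39 without mouse 64. Only 3 of the libraries at 30 months lay above all those at 24 months, and mice 14 and 64 stood highest, at 34.7 and 34.0 CPM. In mouse 64 the level at 30 months was 3.07-fold that at 24 months.

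Nr4a2 (ENSMUSG00000026826, chr2:57106830-57124003), known best from dopamine neurons, ranged from 5.34 to 8.45 CPM at 24 months (median 6.90) and from 7.21 to 8.95 CPM at 30 months (median 7.91). Its log2 fold change was 0.25 ± 0.09 (SE, n = 8 mice), and it was higher in 7 of 8 mice, with mouse 75 as the exception. The libraries at 30 months lay within a range of 1.24-fold, against 1.58-fold at 24 months. Nr4a3 (ENSMUSG00000028341, chr4:48045153-48086447), the least abundant of the 10 genes with 29 to 170 reads per library, ranged from 2.06 to 3.30 CPM at 24 months (median 2.52) and from 1.24 to 5.35 CPM at 30 months (median 2.43). Its log2 fold change was 0.03 ± 0.24 (SE, n = 8 mice), with 3 mice higher and 5 lower. Single mice went far in either direction, from 0.437-fold in mouse 64 to 2.55-fold in mouse 50, and the sign of the mean rested on single animals: it was -0.17 without mouse 50 and -0.04 without mouse 29.

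Of the 3 IER genes, Ier2 and Ier3 were higher at 30 months in every mouse and Ier5 was not. Ier2 (ENSMUSG00000053560, chr8:84661331-84662852), an early response gene with a nuclear protein, lay in the narrow range of 35.1 to 41.3 CPM at 24 months (median 39.2) and between 39.1 and 77.4 CPM at 30 months (median 47.5). Of the 8 libraries at 30 months, 7 lay above all those at 24 months, and the one that did not was that of mouse 13. The log2 fold change of Ier2 was 0.40 ± 0.10 (SE, n = 8 mice), with the largest difference, 2.08-fold, in mouse 14.

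Ier3 (ENSMUSG00000003541, chr17:35821684-35822923), known as IEX-1 and as a modulator of cell survival, ranged from 14.3 to 19.4 CPM at 24 months (median 18.2) and from 20.6 to 31.2 CPM at 30 months (median 24.1). It was the only one of the 10 genes whose groups did not overlap. The closest libraries were those of mouse 14 at 24 months (19.4 CPM) and mouse 13 at 30 months (20.6 CPM), so the gap was the same without mouse 43, 29 or 50. With the labels of mouse 43 exchanged (14.3 and 22.8 CPM) the groups would overlap. The log2 fold change was 0.46 ± 0.08 (SE, n = 8 mice), and the changes of single mice ran from 1.08-fold in mouse 13 to 1.63-fold in mouse 29. Ier5 (ENSMUSG00000056708, chr1:155096361-155099636), which takes part in the heat shock response, ranged from 30.7 to 37.2 CPM at 24 months (median 34.5) and from 28.5 to 45.3 CPM at 30 months (median 34.0). The log2 fold change was 0.03 ± 0.09 (SE, n = 8 mice), with 5 mice higher and 3 lower. Of the libraries at 30 months, 3 lay above and 2 below all those at 24 months. Mouse 29, at 45.3 CPM, was 1.48-fold higher at 30 months, and without it the log2 fold change of Ier5 was -0.04.

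Zfp36 (ENSMUSG00000044786, chr7:28376784-28380253) ranged from 42.7 to 52.9 CPM at 24 months (median 45.3) and from 45.9 to 102 CPM at 30 months (median 54.1). The log2 fold change was 0.39 ± 0.11 (SE, n = 8 mice), and without mouse 29 it was 0.31. Every mouse had more Zfp36 at 30 months, and 5 of 8 libraries at 30 months lay above all those at 24 months. Mice 29 and 14 reached 102 and 97.3 CPM, and the other 6 libraries at that age stayed between 45.9 and 57.5 CPM. An antisense gene, Gm44710, overlaps Zfp36 in the annotation, and the library kit keeps no strand, so reads of Zfp36 and of its antisense partner cannot be told apart. In whole tissue, more cells that use a gene and more RNA per cell cannot be told apart, for Zfp36 and for all genes described here.

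The paired fit gave the following counts over all genes, beside those of the early genes, from which nothing is read because this contrast chose them. With edgeR's quasi-likelihood test, 0 of 21526 genes (0.0%) had an adjusted p under 0.05, and so did 0 of the 10 early genes. At an unadjusted p under 0.05, 4.86% of all genes were higher and 7.18% were lower at 30 months, and 6 of the 10 early genes were higher (Egr1, Nr4a1, Nr4a2, Ier2, Ier3 and Zfp36) and 0 lower. With DESeq2's Wald test, 228 of 19439 genes (1.17%) had an adjusted p under 0.05, among them Egr1, Ier2 and Ier3. A higher level at 30 months in 8 of 8 mice was found for 1.08% of all genes and for 4 of the early genes, and a lowest library at 30 months above the highest at 24 months for 0.0697% of all genes and for Ier3. The median log2 fold change of the 10 genes was 0.32, beside 0.01 for all genes tested.

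Averaged over the 10 genes, the log2 CPM was 0.29 ± 0.15 (SD, n = 8 mice) higher at 30 months, and the average was above 0 in each of the 8 mice. It was smallest in mouse 21 (0.05) and largest in mouse 14 (0.53) and mouse 29 (0.42). The mean of the 10 fitted log2 fold changes, a related value, was between 0.26 and 0.34 when any one mouse was left out. Because this contrast chose the genes, these values describe and are no evidence of a change. Mouse 43 had 9 of 10 genes higher, more than any other animal, although its libraries ran the other way on the first principal component. The fewest, 6 of 10, were higher in mice 21 and 64. The genes with the largest differences were not those of every mouse: in mouse 64 Egr1 and Nr4a1 were 1.61 and 1.62 higher on the log2 scale while Nr4a3 was at -1.20 and Ier5 at -0.23, and in mouse 29 Zfp36 stood at 0.95, Egr2 at 0.80 and Nr4a1 at -0.32.

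**Figure D2:**
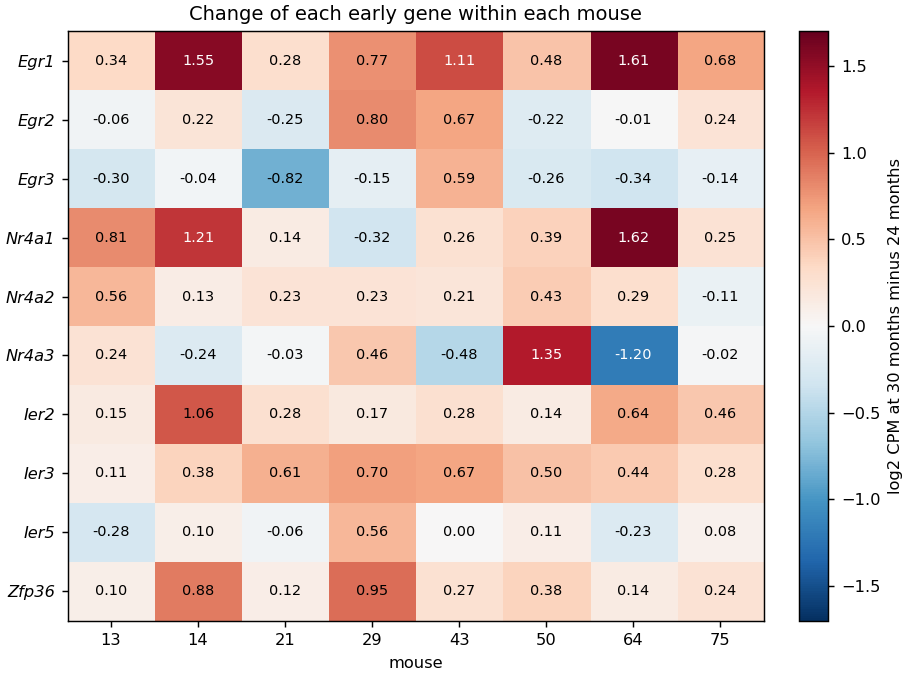
Log2 CPM at 30 months minus 24 months for each early gene (rows) in each mouse (columns), red where higher and blue where lower at 30 months. The rows of Egr1, Ier2, Ier3 and Zfp36 are red throughout, the largest cells are those of Nr4a1 and Egr1 in mouse 64 (1.62 and 1.61), and Nr4a3 spans -1.20 to 1.35.

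The 10 genes can be compared with one another only per length, as RPKM, which divides the reads of a gene by its exon length and by the depth of the library. At 24 months Ier2 had the highest median level, 25.6 RPKM, followed by Egr2 (19.6 RPKM), Ier3 (16.2 RPKM), Zfp36 (13.2 RPKM), Egr1 (12.98 RPKM), Ier5 (10.6 RPKM) and Egr3 (9.75 RPKM). The NR4A genes lay below them, with 3.91 RPKM for Nr4a1, 1.67 RPKM for Nr4a2 and 0.425 RPKM for Nr4a3. The order held in 8 of 8 libraries for most neighbours, but Zfp36 lay above Egr1 in only 5 libraries, Egr1 above Ier5 in 6 and Ier5 above Egr3 in 6, so each of these 3 neighbouring pairs was not separated beyond the spread of the libraries. Zfp36 lay above Ier5 and above Egr3 in 8 of 8. At 30 months the median of Egr1 came to the level of Ier3 (21.1 RPKM) and Egr2 (20.99 RPKM), and Zfp36 lay above Egr1 in only 2 of 8 libraries.

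Within the EGR family the make-up differed between the ages. The share of Egr1 in the summed RPKM of the 3 genes had a median of 29.9% (27.0% to 39.7%) at 24 months and of 39.1% (34.0% to 63.7%) at 30 months, and was higher in 8 of 8 mice. The share of Egr3 went from a median of 23.6% to 15.9% and was lower in 8 of 8 mice, mouse 43 included, while that of Egr2 went from 46.7% to 42.8% and was higher in 1 mouse. These shares rest on the same reads as the changes above and are no separate evidence. In the NR4A family the median share of Nr4a1 was 65.5% at 24 months and 66.0% at 30 months, and that of Nr4a3 was 7.16% and 5.84%. In the IER family the share of Ier5 had a median of 20.6% at 24 months and of 16.1% at 30 months and was higher in 1 of 8 mice, while Ier2 stayed near the middle, at 50.2% and 50.3%.

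**Figure D3:**
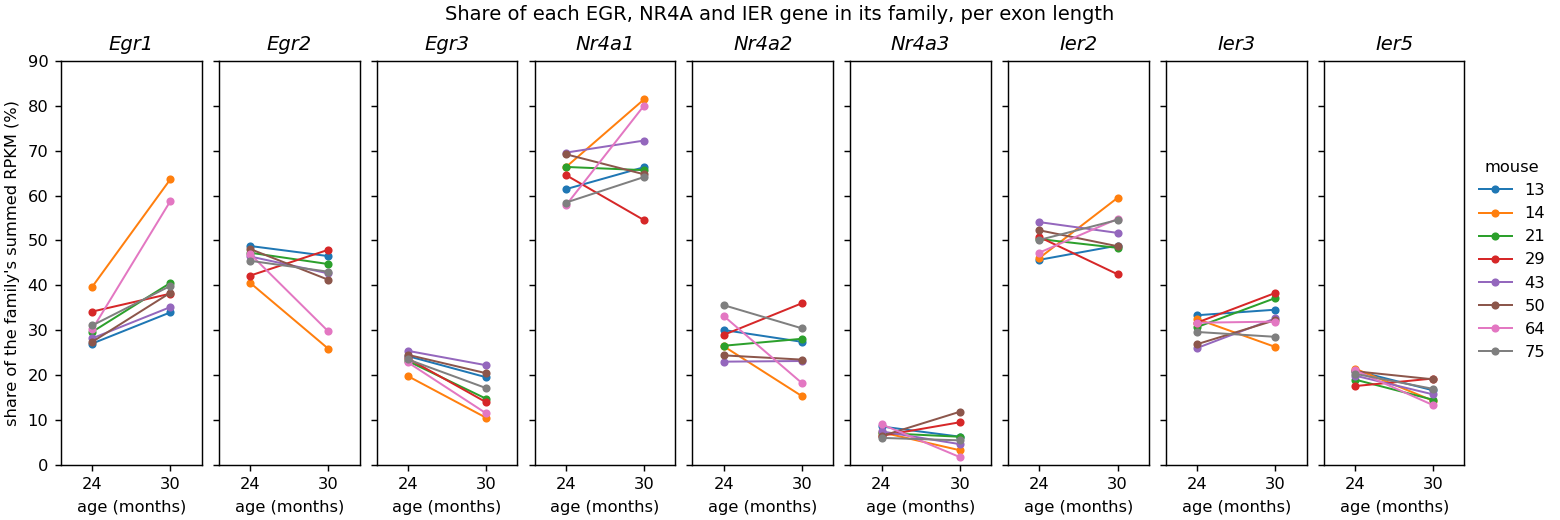
Share of each gene in the summed RPKM of its family (percent, linear axis from 0) at 24 and 30 months, with 1 line per mouse. The lines of Egr1 go up and those of Egr3 go down in all 8 mice, and the shares of Nr4a1 at 30 months spread from 54.5% to 81.5%.

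The libraries at 30 months were also more unlike one another. The SD of log2 CPM between libraries was larger at 30 than at 24 months for 9 of the 10 genes, from 0.38 to 0.75 for Egr1, from 0.08 to 0.31 for Ier2 and from 0.12 to 0.45 for Zfp36, and smaller for Nr4a2 (0.21 and 0.11). This was not particular to the early genes: the SD was larger at 30 months for 78.0% of all genes tested, with a median of 0.18 at 24 months and of 0.27 at 30 months. Single libraries can carry such a difference. For Zfp36 at 30 months, mice 29 and 14 lay at 102 and 97.3 CPM and the others between 45.9 and 57.5 CPM. The SDs were not computed without outlying libraries.

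The genes varied together only in part. Over the 16 libraries, which share mice, ages and a scaling, the median Pearson correlation of log2 CPM over the 45 pairs was 0.35, and 16 pairs were above 0.5. Egr1 and Ier2 had the highest value (0.87), followed by Egr1 and Zfp36 (0.81) and by Nr4a1 and Ier2 (0.79). Zfp36 went most closely with the mean of the other 9 genes (0.93), then Egr1 (0.85) and Ier3 (0.70), whereas Egr3 was at 0.13 and Nr4a3 at -0.11. These values pool both ages: among the 24-month libraries alone Egr3 was at 0.74 with Egr1, 0.86 with Egr2 and 0.67 with Zfp36, and among the 30-month libraries at 0.35, 0.75 and 0.48. Within 1 age the median was 0.20 at 24 months and 0.25 at 30 months (8 libraries each). Egr1 and Zfp36 were at 0.92 among the 24-month libraries alone and at 0.71 among the 30-month libraries. In the same order Egr1 and Ier2 were at 0.06 and 0.91, Nr4a1 and Ier2 at 0.5 and 0.73, and Ier2 and Ier3 at -0.45 and 0.25. For the changes within the 8 mice the median was 0.09, with 24 of 45 pairs above 0. There the changes of Egr1 and Ier2 were at 0.79, those of Ier5 and Zfp36 at 0.82, and those of Egr1 and Nr4a3 at -0.68.

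**Figure D4:**
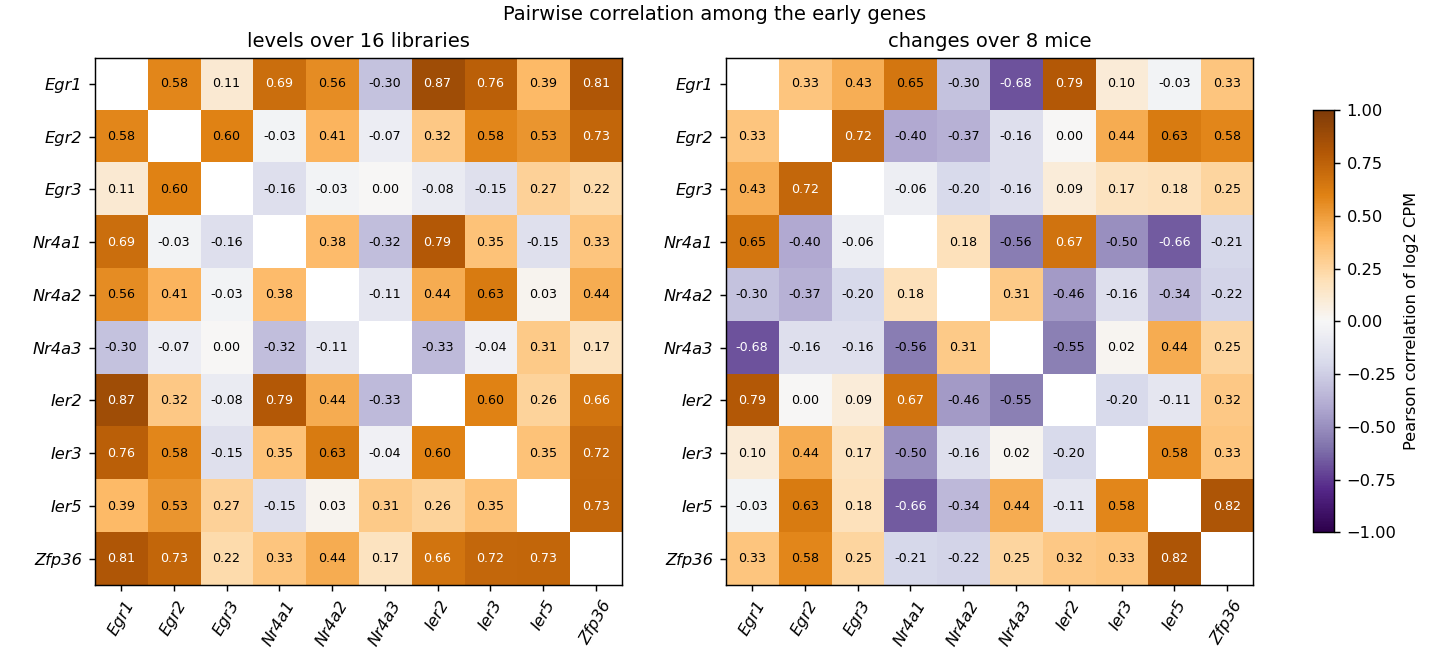
Pearson correlation of log2 CPM for each pair of the early genes, over the 16 libraries (left) and for the changes within the 8 mice (right), with orange above and purple below 0. On the left, which pools both ages, the pairs among Egr1, Ier2, Ier3 and Zfp36 are at 0.60 to 0.87. On the right the same pairs run from -0.2 (Ier2 and Ier3) to 0.79 (Egr1 and Ier2). Nr4a3 is at or below 0 with most genes on the left.

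Taking the mean z-score of the 10 genes in each library as their common level, the highest libraries were those of mouse 29 (1.33) and mouse 14 (1.25) at 30 months, and the lowest those of mouse 50 (-0.75) and mouse 13 (-0.74) at 24 months. Of 14198 other protein-coding genes with a mean of at least 1 CPM, the 10 whose log2 CPM was most like this mean over the 16 libraries were Junb (Pearson's r 0.91), Tmem125 (0.85), Ccn1 (0.84), Csrnp1 (0.82), Pim1 (0.82), Cyp1b1 (0.81), Zfp36l2 (0.81), Amotl2 (0.80), Grpel2 (0.80) and Mc2r (0.79). The mean pools both ages and is made of genes chosen for their change, so genes higher at 30 months are favoured. Each of these 10 had a positive log2 fold change. Junb stayed close within each age, with 0.82 at 24 months and 0.86 at 30 months, whereas Mc2r was at 0.37 at 24 months and 0.80 at 30 months. The lowest values were 0.33 for Csrnp1 at 24 months and 0.69 for Zfp36l2 at 30 months. Reads on genes had a correlation of -0.15 with the mean z-score.

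The other genes of the early response were compared with those further upstream. All these lists were chosen with earlier results of these data known, so their counts and medians describe and are no separate evidence. No test between lists was made. In none of the lists did a gene pass edgeR's adjusted threshold, as for the genes at large, so the counts below are at an unadjusted p under 0.05, of which 4.86% of all genes were higher and 7.18% lower. The AP-1 subunits, partners in the same response, had 3 of 8 higher and 0 lower, with a median log2 fold change of 0.20. Fos, the founding member of AP-1, had the largest change, from a median of 8.20 CPM (7.05 to 20.2) to a median of 20.1 CPM (11.9 to 289, the highest in mouse 14), a log2 fold change of 1.56 ± 0.35 (SE, n = 8 mice). Fosb had a log2 fold change of 0.96 ± 0.33 (SE, n = 8 mice). By DESeq2's Wald test 2 AP-1 genes passed.

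Of 30 other early genes, 10 were higher and 0 lower, with a median log2 fold change of 0.24, and 6 passed with DESeq2. Ccn1, a matrix protein induced by stretch, and Sgk1, a kinase induced by serum and glucocorticoids, had the largest values, 0.77 ± 0.20 and 0.64 ± 0.18 (SE, n = 8 mice). Among 8 DUSP phosphatases, which switch MAP kinases off, 1 was higher and 0 lower, with a median log2 fold change of 0.20, and 1 passed with DESeq2. Dusp1 ranged from 36.4 to 72.5 CPM at 24 months and from 60.4 to 222 CPM at 30 months, a log2 fold change of 0.91 ± 0.14 (SE, n = 8 mice), and Dusp4 stood at 0.33 ± 0.16. Among 7 relatives of the early genes, 3 were higher and 0 lower, with a median of 0.17 and 1 gene past DESeq2's threshold. Zfp36l2, a paralogue of Zfp36, stood at 0.43 ± 0.10 and Ier5l, a relative of Ier5, at 0.42 ± 0.13 (SE, n = 8 mice), both higher in 8 of 8 mice.

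The lists of upstream genes, those for SRF, CREB and MAP kinases, had medians near that of all genes, while single members lay on either side. The corepressors Nab1 and Nab2, which bind EGR proteins, were listed apart from these. Nab1 and Nab2 stood at -0.02 ± 0.07 and -0.09 ± 0.08 (SE, n = 8 mice), with 0 of 2 passing by either tool. Of 7 genes for SRF and its cofactors, 2 were higher and 0 lower, with a median log2 fold change of 0.06 and 0 past DESeq2's threshold, and Myocd and Elk3 had the largest values (0.52 ± 0.39 and 0.32 ± 0.12). Of 8 genes for CREB and its coactivators, 2 were higher and 1 lower, with a median of 0.03 and 0 with DESeq2, and Crtc1 and Crtc3 stood at -0.28 ± 0.10 and 0.19 ± 0.08. Of 17 genes of the RAS, RAF and MAP kinase pathway, 1 was higher and 0 lower, with a median of 0.01 and 0 with DESeq2, and Mapkapk2, the kinase that phosphorylates tristetraprolin, stood at 0.20 ± 0.07. These are mRNA levels, and the activity of kinases and of SRF or CREB was not measured.

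Of 11 mRNAs known to bind tristetraprolin that could be tested, 1 was higher at an unadjusted p under 0.05, and it was Ier3, one of the 10 early genes, which was also the one gene past DESeq2's threshold. The median log2 fold change of this list, Ier3 included, was 0.34, but its mean change was above 0 in only 4 of 8 mice. The largest values were those of 2 chemokine genes near the limit of counting: Cxcl2 ranged from 0.0628 to 1.101 CPM at 24 months and from 0.320 to 2.49 CPM at 30 months (0.88 ± 0.57), and Cxcl1 stood at 0.87 ± 0.44 (SE, n = 8 mice).

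**Figure D5:**
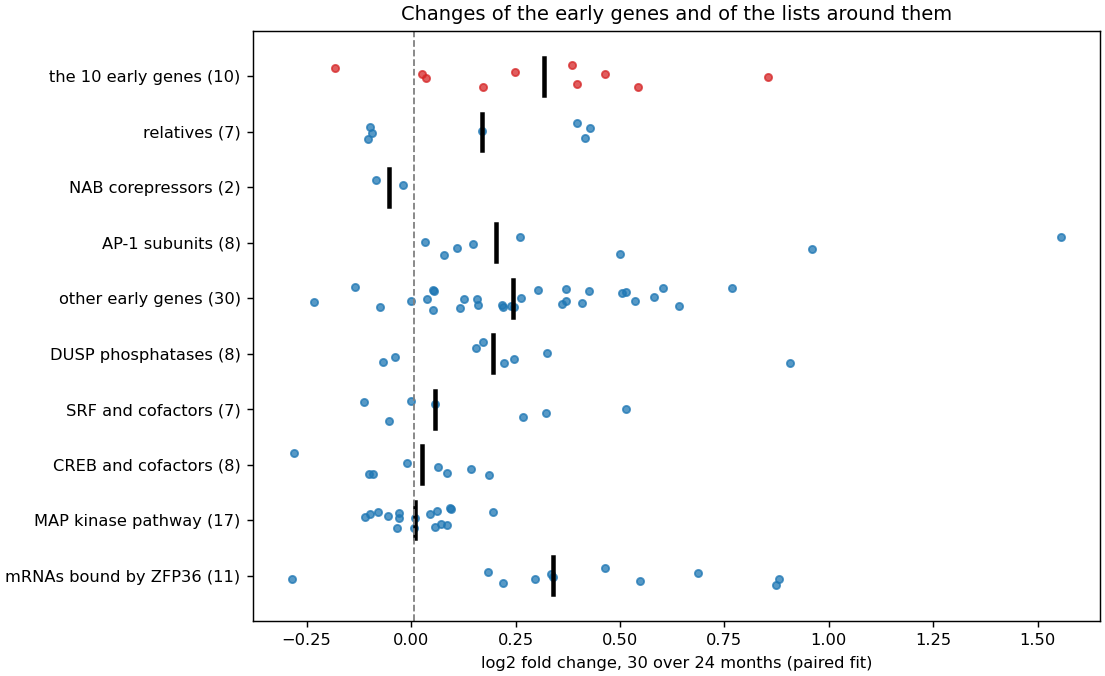
Log2 fold change from 24 to 30 months of each gene (points) in the lists named at the left, with the number of genes tested in parentheses, a black bar at the list's median and a dashed line at the median of all genes tested (0.01). The early genes, AP-1 subunits, other early genes and DUSP phosphatases have medians between 0.20 and 0.32, and the lists for SRF, CREB and MAP kinases between 0.01 and 0.06. All lists were chosen with earlier results of these data known.

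Markers of other cell types were compared as well. The summed CPM of 6 endothelial markers was 105 to 141 at 24 months and 113 to 297 at 30 months, higher in 6 of 8 mice, and that of 6 fat cell markers was 112 to 273 and 65.2 to 712, higher in 7 of 8 mice. In the same order, their log2 sums had correlations of 0.33 and 0.39 with the mean z-score of the early genes over the 16 libraries. For the changes within the 8 mice the correlations were -0.28 and -0.04. The 5 melanocyte markers summed to 76.3 to 159 CPM and to 27.2 to 102 CPM and were higher in 1 of 8 mice, and their log2 sum had a correlation of -0.68 with the mean z-score of the early genes over the 16 libraries, which pool both ages, and of -0.39 for the changes within the 8 mice. The 7 skeletal muscle markers ran from 830 to 9663 CPM and from 1218 to 7479 CPM, with a correlation of -0.07 over the libraries and of -0.43 for the changes, and the 7 macrophage markers from 560 to 989 CPM and from 468 to 1860 CPM, with a correlation of 0.25 over the libraries and of 0.32 for the changes. The 7 cartilage markers summed to 152 to 254 CPM and to 124 to 185 CPM and were higher in 1 of 8 mice, with 4 of the 6 tested genes lower at an unadjusted p under 0.05 and 1 past DESeq2's threshold, and with correlations of -0.44 over the libraries and of 0.14 for the changes. The 6 differentiated keratinocyte markers summed to 13040 to 18460 CPM and to 11890 to 18070 CPM, higher in 2 of 8 mice, with 1 of 5 tested genes higher and 2 lower at that p and 2 past DESeq2's threshold, and with a correlation of -0.36 for the changes. The basal keratinocyte markers, higher in 3 of 8 mice, were at -0.34 over the libraries and at -0.52 for the changes. None of the marker genes listed was at 0 in all libraries. The part of tissue make-up in the levels of the early genes was not tested.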

How the data were processed

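Per the labels, the authors prepared unstranded libraries with the TruSeq RNA kit v2, and their processing notes name CASAVA 1.8.4, TopHat2 2.1.0, HTSeq 0.6.1p1 and the mouse genome mm10 (GRCm38). The study's methods describe single-end reads aligned with TopHat and counted per gene with HTSeq or featureCounts, and give other versions for demultiplexing and alignment, so which versions made this table is uncertain. The values they deposited are raw counts per gene. Whether the counting used strand is not given in the sources used here. Left out were 5 summary lines that name no gene (18.74% to 21.07% of each library's reads), and 0 columns belonged to other samples. Depth was 22967222 to 36162431 reads on genes, so Nr4a3, with 29 reads at its lowest, is the least precise of the 10 genes.

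Symbols, positions and exon lengths were taken from GENCODE M21 (45143 of 45706 identifiers). Counts were fitted in R 4.3.3 with edgeR 4.0.16 (TMM, filterByExpr, quasi-likelihood test, Benjamini-Hochberg adjustment over all genes, threshold 0.05) with the mouse as a block, because both libraries with one number are from one animal. Residuals about the age means correlated at a median of -0.02 for libraries of 1 mouse and of -0.01 for those of different mice. On counts simulated for 21526 genes with 200 changed by 1 on the log2 scale, this fit recovered 165 of them, each with its true sign, and called 6 others. The largest log2 fold change among the 10 early genes was 0.85, and recovery of differences smaller than 1 was not tested. Log2 CPM used a prior count of 2. The SE beside a log2 fold change is its absolute value divided by the square root of the F statistic of the quasi-likelihood test. It is therefore a value of the fit and was not computed from the SD of the single-mouse changes. As alternatives, the fit was repeated with size factors from DESeq2, with the Wald test of DESeq2 1.42.0, without the filter and without the block. It was also repeated with age in months and without each mouse in turn. The levels by library, which use no fit, were described again as RPKM with TMM-scaled library sizes. Descriptions were computed in Python 3.11.15 with pandas 2.3.3. The early genes and all lists were chosen with earlier results of these data known. Beside the 10 genes, the text names the 10 genes most like them, the 2 genes of each list with the largest absolute log2 fold change, and cell type markers by list; 1 gene that this rule names is not reported here.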

Additional observations from a re-analysis of the deposited data

Results flagged for a closer look

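In 31 sets of 8 values (the levels of the 10 early genes at each age, their changes within mice and their mean change), 1 held a mouse far from the others, where chance alone would give about 1 in 20 sets, or 1.55. It was the change of Ier5, which was 0.56 on the log2 scale in mouse 29, with the next highest mouse at 0.11. The gap was 0.533 of the whole range of the 8 mice, against a critical value of 0.526. The library of mouse 29 at 30 months also stood apart on the second principal component of all genes, and the relation of these 2 facts was not tested.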

How the results depend on the processing

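The count of genes past an adjusted p of 0.05 was 0 for all genes, for the 10 early genes and for the lists around them with edgeR, with DESeq2 size factors, without a filter, with age in months and without any one mouse (0 to 0). DESeq2's Wald test gave 228 genes in all, 3 of the early genes and 9 of the 46 AP-1, other early and DUSP genes. Of the relatives Zfp36l2 passed, and of the mRNAs bound by tristetraprolin only Ier3, which is already counted among the early genes. With no replicate block for the mouse, edgeR called 3 genes in all and 0 of the early genes, and the pairing changed no other count. The mean of the fitted log2 fold changes of the early genes was 0.26 to 0.34 without any one mouse. In 13 alternatives, 8 of the 10 genes kept the sign of their log2 fold change, with Egr1 between 0.74 and 0.99 and Egr3 between -0.29 and -0.09. Nr4a3 had the opposite sign in 2 (without mouse 29 or 50) and Ier5 in 1 (without mouse 29). Of all alternative values, 179 were counted as the same as the main ones and 4 as moved. The 4 that moved were all counts of genes past the threshold, with DESeq2's Wald test or without the block. The changes of sign of Nr4a3 and Ier5 are among the 179, as are counts that stayed at 0. Depth limits Nr4a3 most. The age of the mice, the ear and the time of sampling cannot be told apart.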

Other observations

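The per-mouse pattern of the early genes, looked at after the values were seen, differed between animals, of which 4 are described. Mouse 14 had its largest changes in Egr1 (1.55 on the log2 scale), Nr4a1 (1.21) and Ier2 (1.06), and mouse 64 in Nr4a1 (1.62), Egr1 (1.61) and Ier2 (0.64). Mouse 29 instead had its largest in Zfp36 (0.95), Egr2 (0.80) and Egr1 (0.77), with Nr4a1 at -0.32. Mouse 50 had Nr4a3 at 1.35, its largest value. No test was made of these differences between mice. Of the relatives of the early genes, Egr4 and Wt1 had too few reads to be tested, and of the mRNAs bound by tristetraprolin the same held for Il6 and Csf2.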
